A study of Homo sapiens with 9 samples.

Results

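The 6 genes described here, BCL6, BACH2, IRF8, IRF4, PRDM1 and XBP1, encode the transcription factors that hold a B cell in the germinal centre state or carry it into the plasma cell state. They were taken as every probe set of the array whose only platform symbol is 1 of these 6, which gave 9 probe sets of the 22215 tested and 6 genes of the 11963 that could be named. BCL6 has 2 probe sets, IRF4 has 3, and BACH2, IRF8, PRDM1 and XBP1 have 1 each. Expression was measured on Affymetrix HG-U133A arrays in 6 established human cell lines grown in serum-supplemented RPMI 1640. The B-cell group had 2 arrays for each of 3 lines labelled untreated. Namalwa is a Burkitt lymphoma line, while both SU-DHL lines, SU-DHL4 and SU-DHL6, represent diffuse large B-cell lymphoma. The plasma cell myeloma (PCM) group had 1 array for each of 3 lines: the plasma cell leukaemia line L363 and the myeloma lines LP1 and U266, with no treatment named. The labels name no engineered allele in any line. Nothing in them says whether the 2 arrays of a line came from separate cultures, so the spread between them may be technical, and tumour lines are no substitute for normal germinal centre or plasma cells. The series text credits the Namalwa arrays to an earlier publication, so for Namalwa the array set and the line cannot be told apart. In such bulk RNA, fewer cells with a transcript and less of it per cell cannot be told apart.

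In the germinal centre, BCL6 is a zinc finger repressor that keeps B cells dividing and mutating their antibody genes, BACH2 is a basic leucine zipper repressor that works beside it, and IRF8 supports the same state with PU.1 family partners. Plasma cell differentiation is driven by rising IRF4, by BLIMP1 (encoded by PRDM1), which shuts down the mature B-cell programme, and by XBP1, which enlarges the secretory apparatus. The 2 sides are described as antagonists: BCL6 and BACH2 repress PRDM1, IRF4 represses BCL6, and BLIMP1 represses BCL6 and other B-cell genes.

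The labels fitted most of the markers of each cell type. All 5 measured B-cell markers (MS4A1, CD79A, CD79B, CD22 and PAX5) were lower in the 3 PCM lines than in any B-cell line, and 4 passed the test. Of the 4 plasma cell markers SDC1, SLAMF7 and TNFRSF17 were higher in every PCM line, with the first 2 past the test, and CD38 overlapped between groups. None of the 3 T-cell, 3 NK-cell, 3 myeloid or 4 fibroblast and epithelial markers passed it, though NCAM1 (0.33) and COL1A1 (0.18) were slightly higher in all 3 PCM lines. The arrays of L363 and U266 were close (standard deviation of the log2 difference over all probe sets 0.320), closer than the 2 SU-DHL6 arrays (0.347) but not than those of Namalwa (0.217) or SU-DHL4 (0.236). LP1 stood 0.550 from L363 and 0.547 from U266. For the 9 probe sets of the switch factors, the test of PCM against B-cell lines is therefore also given with L363 and U266 averaged as 1 line where that ended a call; the lists and markers were not tested that way.

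Taken as groups, the 3 germinal centre factors were lower and the 3 plasma cell factors higher in PCM lines, with BACH2 and XBP1 short of the test's threshold. In limma on 3 against 3 lines, 6 of the 9 probe sets passed an adjusted p under 0.05, 3 lower (both of BCL6 and IRF8) and 3 higher (IRF4 at 2 probe sets and PRDM1). Over all tested probe sets 1.67% were called lower and 1.12% higher. At 8 of the 9 probe sets the 3 PCM lines all lay on 1 side of the 3 B-cell lines, which was true of 28.2% of all probe sets. With L363 and U266 averaged as 1 line, only the brighter BCL6 probe set and IRF8 kept their call, a count of 2.

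**Figure D1:**
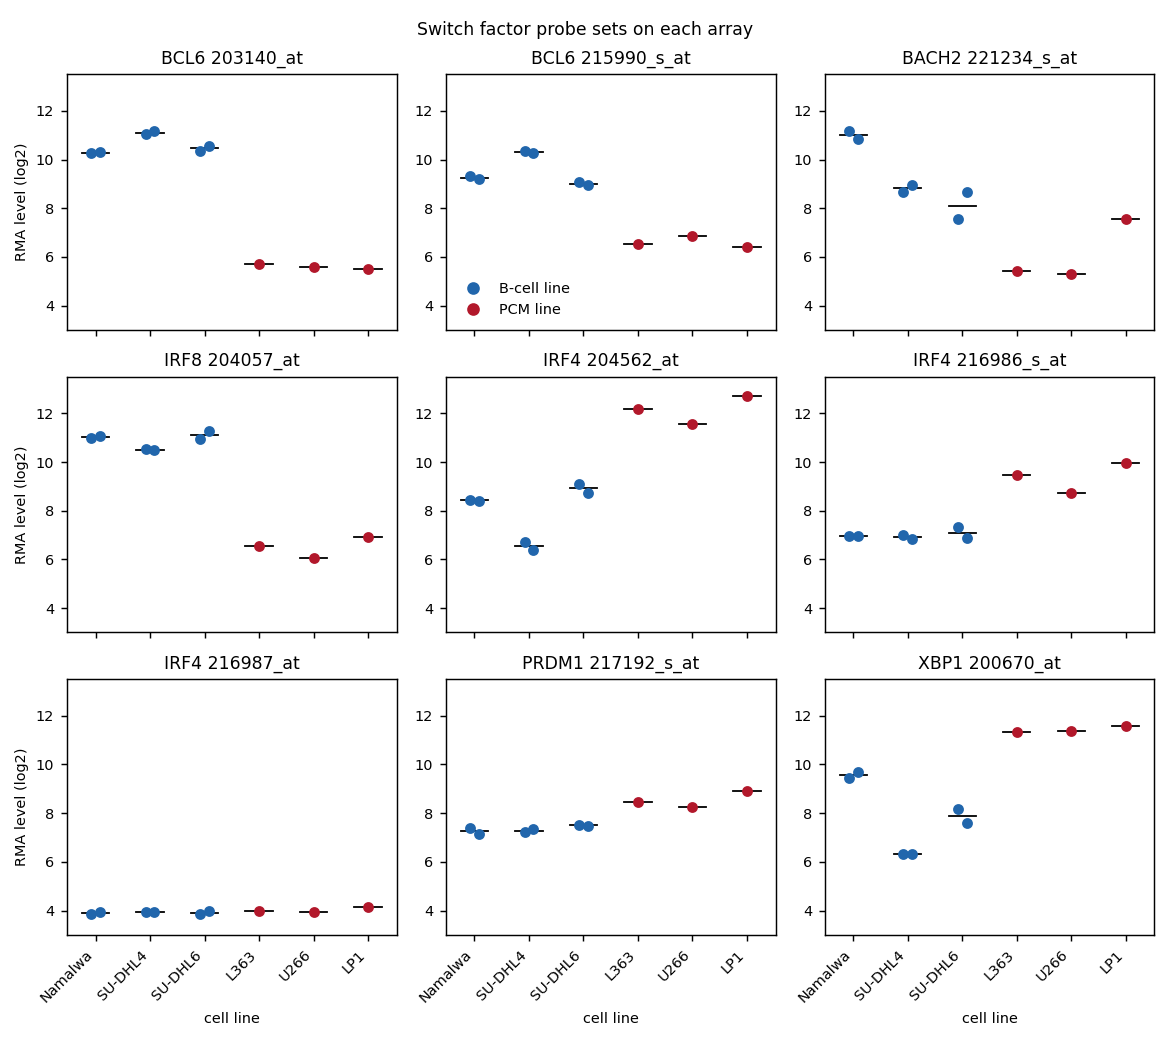
RMA level (log2) of each of the 9 probe sets on each array, with a black bar at the mean of a line, B-cell lines in blue and PCM lines in red. BCL6, IRF8, both responsive IRF4 probe sets and, more narrowly, PRDM1 show a gap between groups. BACH2 in LP1 (7.55) meets 1 SU-DHL6 array (7.54), XBP1 forms a series of steps, and the third IRF4 probe set is flat.

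BCL6 gave the largest difference between the groups, at the first of its 2 probe sets. At its brighter probe set, 203140_at, the log2 level was 10.25 and 10.32 in Namalwa, 11.05 and 11.15 in SU-DHL4 and 10.36 and 10.57 in SU-DHL6, against 5.69 in L363, 5.58 in U266 and 5.52 in LP1. No PCM array came within 4 log2 units of a B-cell array. The PCM mean of 5.60 (SD 0.09, n = 3 lines) lay below the B-cell mean of 10.62 (SD 0.43, n = 3), a fall by 5.02 on the log2 scale (SE 0.22, adjusted p = 0.00222), which is 32.4-fold (95% interval 22.1 to 47.5). RMA values carry no detection call, so it is not known whether the low levels of this and the other probe sets lie above background, and folds against them may understate the difference. At the second probe set, 215990_s_at, the same groups stood at 6.60 (SD 0.23) and 9.53 (SD 0.70), and BCL6 fell by 2.93 (SE 0.36, adjusted p = 0.0228), or 7.62-fold. The call at the second probe set was lost without Namalwa (adjusted p = 0.0544), L363 (0.105) or U266 (0.0672) and with L363 and U266 averaged (0.0823).

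The B-cell lines differed in BCL6 at both probe sets, and the PCM lines did not differ past the threshold. Pairs of lines were compared in a limma fit on all 9 arrays, in which the spread comes from the 3 duplicate pairs and the single PCM arrays are assumed to vary alike. SU-DHL4 was highest, above SU-DHL6 by 0.64 (log2, SE 0.11, adjusted p = 0.0252) and above Namalwa by 0.82 (SE 0.11, adjusted p = 0.0123) at 203140_at. At 215990_s_at SU-DHL4 led Namalwa by 1.07 (adjusted p = 0.00429) and SU-DHL6 by 1.32 (adjusted p = 0.00254). Its lead over Namalwa there was lost without Namalwa array 2 (adjusted p = 0.0584). Namalwa and SU-DHL6 were neighbours that did not differ past the threshold at either probe set (0.18, adjusted p = 0.431, and 0.25, adjusted p = 0.211). The lead of SU-DHL4 over SU-DHL6 at 203140_at was lost without any single array of Namalwa or SU-DHL4 (adjusted p = 0.0786 to 0.166). In these pair fits, 8.52% of all probe sets were called between SU-DHL6 and SU-DHL4, 7.67% between SU-DHL4 and Namalwa and 9.65% between SU-DHL6 and Namalwa.

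The BCL6 promoter is shown because BCL6 is known to bind and repress its own gene, so the letters its zinc fingers recognise can be looked for beside these levels. The window runs from 250 bases before to 50 bases after the first of 2 RefSeq starts of BCL6, chr3:187745419-187745718 on the minus strand of GRCh38.p14, and capitals mark matches to TTCNNNGAA, a palindrome and so the same on both strands, which STAT factors and BCL6 share.
BCL6 promoter: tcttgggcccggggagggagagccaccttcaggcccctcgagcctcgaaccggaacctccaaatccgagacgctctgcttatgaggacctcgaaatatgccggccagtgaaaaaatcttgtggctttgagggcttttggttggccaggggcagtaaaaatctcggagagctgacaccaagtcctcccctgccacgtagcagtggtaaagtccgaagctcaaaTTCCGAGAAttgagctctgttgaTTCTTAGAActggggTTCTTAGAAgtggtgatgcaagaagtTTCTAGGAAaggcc
It held 4 matches, starting 28 and 5 bases before the start and at bases 11 and 37 after it. A match was found in 7.66% of 35116 promoter windows of this length, and 4 or more in 0.0199%. The limit of 4 is the count of this window itself, and such a share was computed for no other motif. A match is a stretch of letters and not a measured binding site.

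IRF8 was also lower in every PCM line than in any B-cell line. Its log2 level at 204057_at was 10.97 and 11.06 in Namalwa, 10.54 and 10.49 in SU-DHL4 and 10.93 and 11.26 in SU-DHL6, against 6.56 in L363, 6.04 in U266 and 6.91 in LP1. The groups were separate by more than 3 log2 units. IRF8 fell by 4.37 (SE 0.27, adjusted p = 0.00539), or 20.7-fold (95% interval 13.1 to 32.8), and kept its call whichever line was left out (adjusted p up to 0.0328 over all alternatives). No pair of lines within a group passed the threshold, the nearest being SU-DHL6 over SU-DHL4 (0.58, adjusted p = 0.0539) and LP1 over U266 (0.86, adjusted p = 0.0577). Namalwa over SU-DHL4 (0.50, adjusted p = 0.0872) passed without either SU-DHL6 array (0.0309).

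BACH2 kept that order in its line means, but LP1 lay close to SU-DHL6 and the group test did not pass. Its log2 level at 221234_s_at was 11.18 and 10.86 in Namalwa, 8.68 and 8.95 in SU-DHL4 and 7.54 and 8.67 in SU-DHL6, against 5.43 in L363, 5.29 in U266 and 7.55 in LP1. Namalwa was high, L363 and U266 were low, and LP1 lay at the level of the lower SU-DHL6 array. The group difference of -3.22 (SE 0.96, adjusted p = 0.158) had a 95% interval from -5.61 to -0.84, and did not pass in any fit with lines as replicates. It passed only with the 9 arrays entered as separate replicates (adjusted p = 0.04996), where 2 arrays of a line count as 2 lines. Leaving out LP1 gave -3.96 and leaving out Namalwa gave -2.37.

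BACH2 also spread widely within both groups, over 2.92 in the B-cell and 2.26 in the PCM lines. Namalwa exceeded SU-DHL4 by 2.20 (SE 0.37, adjusted p = 0.0252) and SU-DHL6 by 2.92 (SE 0.37, adjusted p = 0.00998), the first of which was lost without any single array of either line (adjusted p = 0.140 to 0.180). LP1 exceeded L363 by 2.12 (SE 0.52, adjusted p = 0.0828) and U266 by 2.26 (SE 0.52, adjusted p = 0.0724), which did not pass. LP1 over L363 passed without either SU-DHL6 array (adjusted p = 0.0132). The SU-DHL6 duplicates differed by 1.13 here, the largest duplicate difference of the 9 probe sets. LP1 did not differ past the threshold from SU-DHL6 (0.55 lower, SE 0.45, adjusted p = 0.571) or from SU-DHL4 (1.27 lower, adjusted p = 0.134). Against SU-DHL6 array 2 alone LP1 was lower by 1.12 (adjusted p = 0.0343), and against array 1 alone it was level with it. Of the 72 pairs of a B-cell with a PCM line at the 8 probe sets other than 216987_at, these were the only 2 not called.

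Among plasma cell factors, IRF4 had the widest range over the 6 lines, 6.14 log2 units at 204562_at. The level was 8.44 and 8.41 in Namalwa, 6.70 and 6.40 in SU-DHL4 and 9.10 and 8.74 in SU-DHL6, against 12.17 in L363, 11.58 in U266 and 12.69 in LP1. Every PCM array was above every B-cell array, and SU-DHL4 stood apart below the other B-cell lines. IRF4 was higher in PCM lines by 4.18 (SE 0.67, adjusted p = 0.0425), or 18.2-fold (95% interval 5.76 to 57.3). The call held without SU-DHL4 but not without any other single line (adjusted p = 0.0607 to 0.157), nor with L363 and U266 averaged (0.117).

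The 3 IRF4 probe sets disagreed on the size of the group difference and of the gaps within the B-cell group. The B-cell line means stood in the same order at 204562_at and 216986_s_at, with SU-DHL4 lowest and SU-DHL6 highest. At 216986_s_at the level was 6.98 and 6.95 in Namalwa, 7.0 and 6.82 in SU-DHL4, 7.31 and 6.89 in SU-DHL6, 9.48 in L363, 8.72 in U266 and 9.98 in LP1. IRF4 rose there by 2.40 (SE 0.32, adjusted p = 0.0272), or 5.27-fold, and the call was lost without Namalwa, SU-DHL4, SU-DHL6 or L363 (adjusted p = 0.0744 to 0.119) and with L363 and U266 averaged (0.0517). At 216987_at all arrays lay between 3.84 and 4.15, and the difference of 0.10 (SE 0.08, adjusted p = 0.534) did not pass, nor did any of its 15 pairs of lines. The gap between SU-DHL4 and the other B-cell lines was seen at 204562_at, where SU-DHL6 was 2.37 (SE 0.16, adjusted p = 0.00220) and Namalwa 1.88 (SE 0.16, adjusted p = 0.00353) above it. At 216986_s_at the same gaps were 0.19 (adjusted p = 0.564) and 0.05 (adjusted p = 0.948). The call of Namalwa over SU-DHL4 at 204562_at was lost without either Namalwa array (adjusted p = 0.0528 and 0.0537). Within the PCM group LP1 exceeded U266 at 216986_s_at by 1.26 (SE 0.23, adjusted p = 0.0351), while 204562_at gave 1.11 (adjusted p = 0.0519). Over all probe sets 6.15% were called between LP1 and U266, 6.48% between LP1 and L363 and 0.230% between U266 and L363.

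PRDM1 showed the smallest rise of the called genes. Its only probe set here, 217192_s_at, gave 7.40 and 7.14 in Namalwa, 7.22 and 7.35 in SU-DHL4 and 7.53 and 7.49 in SU-DHL6, against 8.46 in L363, 8.23 in U266 and 8.89 in LP1. The groups did not overlap, and their distance of 1.17 (SE 0.19, adjusted p = 0.0415) is 2.25-fold (95% interval 1.64 to 3.10). The call was lost without any line other than LP1 (adjusted p = 0.0603 to 0.140), with the mean of L363 and U266 as 1 line (0.0880) and on the second array of every B-cell line (0.0501). No pair within a group passed, and the lowest PCM line, U266, exceeded the highest B-cell line, SU-DHL6, by 0.72 (SE 0.14, adjusted p = 0.0312). That gap was lost without any single array of SU-DHL4 or SU-DHL6 (adjusted p = 0.0561 to 0.0758).

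The PRDM1 window is shown because BACH2 and AP-1 factors compete for the same letters and interferon regulatory factors pair with ETS factors at others. It lies at the second of 2 RefSeq starts, chr6:106098691-106098990 on the plus strand of GRCh38.p14, and capitals mark a match to TGANTCA, starting 42 bases before the start, and a match to GGAANNGAA, starting 12 bases before it.
PRDM1 promoter: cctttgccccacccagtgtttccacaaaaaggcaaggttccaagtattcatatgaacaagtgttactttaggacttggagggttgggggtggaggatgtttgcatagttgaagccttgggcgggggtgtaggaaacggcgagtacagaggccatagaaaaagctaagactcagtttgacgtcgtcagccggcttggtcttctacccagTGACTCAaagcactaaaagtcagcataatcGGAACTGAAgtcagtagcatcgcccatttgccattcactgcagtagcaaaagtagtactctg
The window at the other PRDM1 start held no match to any of the 6 motifs, and that at the second BCL6 start held 1 match to TGANTCA, starting 77 bases before the start. TGANTCA was found in 7.71% and GGAANNGAA in 7.79% of all windows, so neither is rare. The interferon regulatory factor letters GAAANNGAA (8.11% of windows) and the BLIMP1 core AGNGAAAG (7.99%) were found in none of the 10 windows of the 6 genes. All motifs were searched on both strands, and no 2 matches overlapped.

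XBP1 stood at a series of levels across the lines and did not pass the group test. The level at 200670_at was 6.33 and 6.33 in SU-DHL4, 8.15 and 7.58 in SU-DHL6 and 9.44 and 9.71 in Namalwa, against 11.35 in L363, 11.36 in U266 and 11.59 in LP1. The PCM lines were nearly level (SD 0.13, n = 3), while the B-cell lines spanned more than 3 log2 units (SD 1.62, n = 3). The difference of 3.51 (SE 0.79, adjusted p = 0.0922), or 11.4-fold, had a 95% interval from 2.91-fold to 44.5-fold. Without Namalwa it was 4.34 (adjusted p = 0.0337), and without SU-DHL4 it was 2.71 (0.137). It also passed with each array as a replicate (0.0249), with line as a random block (0.0188) and in the authors' deposited table (0.0249). Each step between B-cell lines passed, SU-DHL6 over SU-DHL4 by 1.53 (SE 0.21, adjusted p = 0.0125) and Namalwa over SU-DHL6 by 1.71 (SE 0.21, adjusted p = 0.00865). L363 in turn exceeded Namalwa by 1.78 (SE 0.25, adjusted p = 0.00890). These steps were lost without single arrays: SU-DHL6 over SU-DHL4 without either SU-DHL4 array (adjusted p = 0.0986 and 0.117), Namalwa over SU-DHL6 without either Namalwa array (0.0713 and 0.0801), and L363 over Namalwa without Namalwa array 1 (0.0648).

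The XBP1 window is shown because XBP1 is itself induced when unfolded protein accumulates, through the endoplasmic reticulum stress element, in which CCAAT and CCACG are 9 bases apart. It lies at the first of 2 RefSeq starts, chr22:28800520-28800819 on the minus strand of GRCh38.p14, and capitals mark the element, which starts 52 bases before the start.
XBP1 promoter: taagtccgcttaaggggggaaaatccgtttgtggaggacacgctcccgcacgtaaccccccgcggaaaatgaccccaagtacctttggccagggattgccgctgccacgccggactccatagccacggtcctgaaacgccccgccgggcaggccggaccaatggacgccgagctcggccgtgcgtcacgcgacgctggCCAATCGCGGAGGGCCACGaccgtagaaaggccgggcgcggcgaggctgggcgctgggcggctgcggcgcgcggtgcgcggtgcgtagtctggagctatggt
The element was found in 0.0769% of all windows, 27 of 35116, on either strand. The second XBP1 window and those of BACH2, IRF8 and IRF4 held no match to any of the 6 motifs, which says only that these letters are not in those 300 bases.

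**Figure D2:**
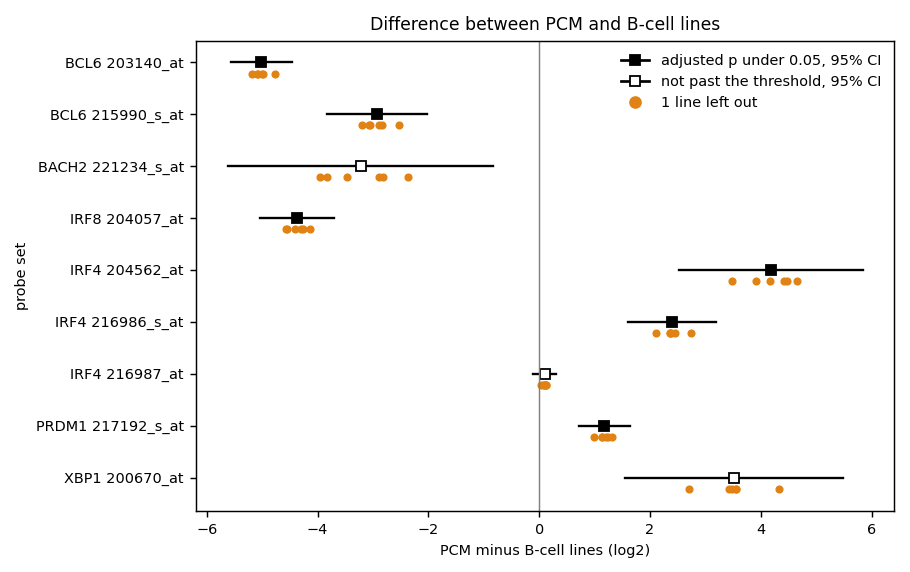
Difference between PCM and B-cell lines (log2) at each probe set, as squares with 95% intervals, filled where the adjusted p was under 0.05, with orange points for the 6 fits that each left out 1 line. Leaving out a line moved BACH2 between -3.96 and -2.37 and XBP1 between 2.71 and 4.34, and turned no sign.

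The calls between pairs of lines fell mostly across the groups. Of the 27 pairs of B-cell lines over the 9 probe sets 11 were called, of the 27 pairs of PCM lines 1, and of the 81 pairs across groups 70. Called shares over all probe sets were also higher for every pair across groups than for any pair within one. Against Namalwa they were 17.0% for L363, 11.3% for U266 and 14.3% for LP1. Against SU-DHL4 they were 20.8%, 13.7% and 17.3%, and against SU-DHL6 15.6%, 11.4% and 15%, for the same 3 lines. A pair of single PCM arrays has a larger standard error than a pair of duplicated lines, so the counts within groups are not directly comparable.

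To place each line, its level was expressed as a position between the lowest (0%) and highest (100%) line of the same probe set. A line between 25% and 75% was taken as intermediate at the 7 probe sets whose lines spanned at least 2 log2 units. SU-DHL6 was intermediate at 4 of the 7, at 215990_s_at for BCL6 (66.3%), at BACH2 (49.1%), at 204562_at for IRF4 (38.6%) and at XBP1 (29.2%). Namalwa was intermediate at 3, with XBP1 at 61.7%, IRF4 at 30.6% and BCL6 at 72.6% at the same probe sets. Neither line was intermediate at the other wide probe set of BCL6 or IRF4. At 203140_at for BCL6 SU-DHL6 stood at 88.5% and Namalwa at 85.3%, and at 216986_s_at for IRF4 at 6.08% and 1.71%. SU-DHL4 was intermediate only at BACH2 (61.5%) and otherwise held an extreme or near-extreme position, highest in BCL6 and lowest in XBP1 and at both of these IRF4 probe sets. LP1 was intermediate only at BACH2 (39.5%), U266 only at 216986_s_at for IRF4 (58.8%), and L363 at none. PRDM1, with a span of 1.62, was not among the 7 probe sets. There L363 stood at 73.6% and U266 at 59.4%.

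For reference, among all 1507 probe sets with a span of at least 2 log2 units, SU-DHL6 was intermediate at 26.8%, Namalwa at 35.2%, SU-DHL4 at 20.8%, L363 at 29.3%, U266 at 29.1% and LP1 at 24.7%. LP1 held the highest level of all 3 plasma cell factors. Its BCL6 was the lowest of the 6 lines at both probe sets, while its IRF8 and BACH2 were the highest of the PCM lines, although only its lead over U266 at 216986_s_at passed the test.

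**Figure D3:**
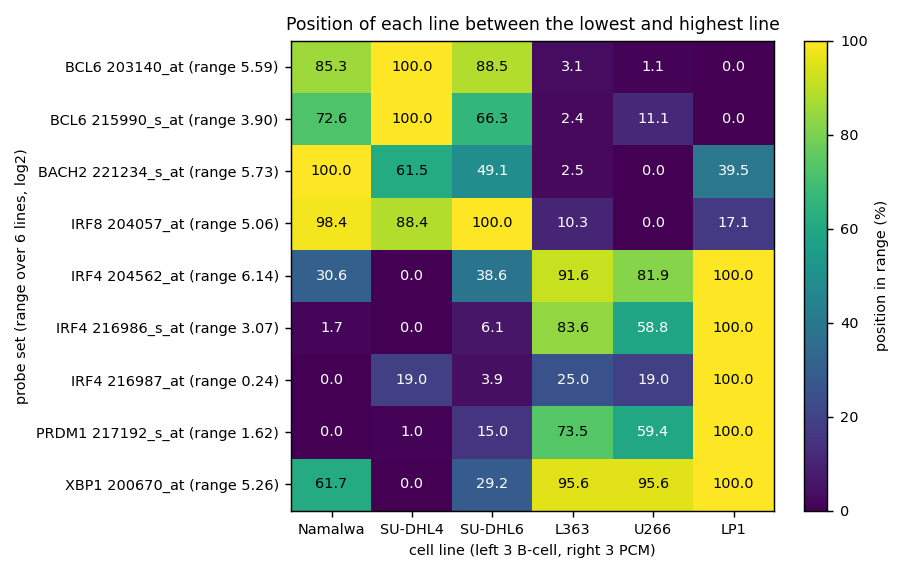
Position (%, colour and number) of each cell line between the lowest and highest line at each probe set, whose range over the 6 lines (log2) stands in its label. The B-cell lines are high at BCL6 and IRF8, the PCM lines at IRF4, PRDM1 and XBP1. Middle positions fall on SU-DHL6 and Namalwa at several probe sets and on SU-DHL4 and LP1 at BACH2. They also fall on U266 at IRF4 216986_s_at and at PRDM1, and on L363 at PRDM1. The row of 216987_at spans only 0.24.

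Mutual exclusion was described by asking, for each pair of genes at their brightest probe sets, which lines held both in the upper part (at least 50%) of their own range. Of 54 combinations of a line with 1 germinal centre and 1 plasma cell factor, 48 had exactly 1 of the 2 in the upper part, 21 the germinal centre factor and 27 the plasma cell factor. The 3 combinations with both were all in Namalwa, where XBP1 was in the upper part together with BCL6, BACH2 and IRF8; the part that its separate array set plays in this was not tested. The 3 with neither were all in SU-DHL6, whose BACH2 was just below the middle of its range. BCL6 and IRF8 were each exclusive with IRF4 and with PRDM1 in all 6 lines. Within the germinal centre side both or neither were in the upper part in 16 of 18 combinations, and within the plasma cell side in 16 of 18. Since the lines form 2 groups, 2 genes in the upper part in opposite groups are exclusive by that alone. Most of these counts thus restate how both genes of a pair differ between the groups, and no correlation over lines was computed. With the upper part starting at 67% in place of 50%, 0 combinations had both.

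**Figure D4:**
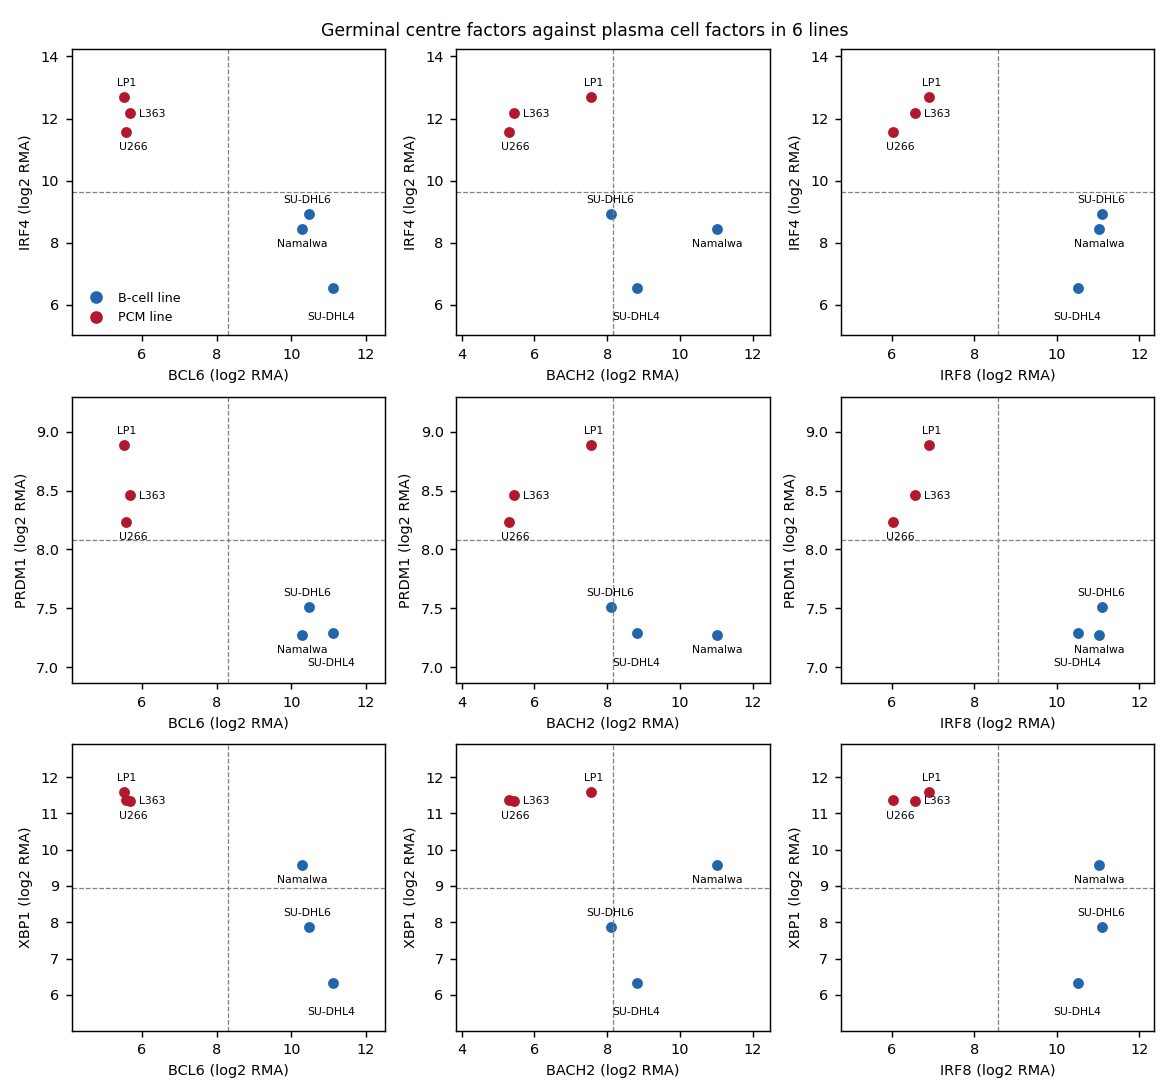
Line means (log2 RMA) of each plasma cell factor against each germinal centre factor, with dashed lines at the middle of each gene's range, B-cell lines in blue and PCM lines in red. The corner above both dashed lines is empty in the panels of IRF4 and PRDM1 and holds Namalwa in the 3 panels of XBP1.

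The genes whose line patterns were most like each factor differed in how close they came. Likeness was measured over the 6 lines as the root mean square difference between values centred on their own mean. For BCL6 the nearest were PTPRC (0.222 log2 units), CD79A (0.369) and RGCC (0.371), and for IRF8 PAX5 (0.341), BLNK (0.389) and CD79A (0.414). BACH2 had no match as close, its nearest being IFI16 (0.708), DNAJC15 (0.726) and TMEM131L (0.732), and IFI16 stood at 8.96 in LP1 against 5.01 in L363 and 4.95 in U266. For IRF4 the nearest were HSPB1 (0.697), XK (0.712) and ELL2 (0.747), for XBP1 SUB1 (0.532), SRGN (0.630) and GUSBP11 (0.684), and for PRDM1, whose range was small, CASP10 (0.0739), CADPS2 (0.0768) and SEC61A1 (0.102). Between members, BCL6 and IRF8 differed by 0.598 and IRF4 and XBP1 by 0.770, the closest pairs on each side.

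Among genes that the switch factors are known to repress, CCND2, PAX5 and SPIB passed the test. Of 11 measured genes known to be repressed by BCL6, CCND2, a D-type cyclin, rose by 6.10 (SE 0.24, adjusted p = 0.00167), and it did so at its other 2 probe sets by 4.10 and 2.80. Over all probe sets 1.12% were called higher. The other 10 did not pass, among them ID2, an inhibitor of E proteins (2.23, adjusted p = 0.0911), the checkpoint kinase gene ATR (-0.79, adjusted p = 0.229) and the cell cycle inhibitor gene CDKN1A (-1.19, adjusted p = 0.352). The median difference of the 11 was -0.12, beside 0.05 over all probe sets. Of 7 measured genes known to be repressed by BLIMP1, 2 fell, PAX5, a B-lineage identity factor, by 4.48 (SE 0.15, adjusted p = 0.00160) and SPIB, an ETS factor of B cells, by 3.04 (SE 0.20, adjusted p = 0.00564), beside 1.67% of all probe sets called lower. MYBL1 (-2.46, adjusted p = 0.104), STAT6 (-1.54, adjusted p = 0.134) and ID3 (-2.30, adjusted p = 0.244) did not pass. MYC (0.51, adjusted p = 0.498) and CIITA (0.13, adjusted p = 0.414) went the other way, also without passing. The median of the 7 was -2.30. The second PAX5 probe set did not move (0.01, adjusted p = 0.968). Without LP1, 4 of the 7 were called, in a fit that called 897 of all probe sets against 619 with every line.

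Among the partners of the factors, SPIB and SPI1 passed the test. Of the 9 partners of IRF4 and IRF8 these 2 were called, beside 1.67% of all probe sets called lower. SPIB fell as given above, and SPI1, which encodes PU.1, fell by 1.48 (SE 0.24, adjusted p = 0.0441). Without any single line other than LP1, 1 of these 9 genes was called, in fits that called 131 to 327 of all probe sets. JUN (1.65, adjusted p = 0.291) and IKZF1 (-0.49, adjusted p = 0.375) did not pass, and the median of the 9 was -0.20. None of 5 measured BACH2 partners and relatives passed, the smallest p being those of the small MAF genes MAFF (0.25, adjusted p = 0.172) and MAFG (0.60, adjusted p = 0.256) and of NFE2L1 (0.46, adjusted p = 0.253) and NFE2L2 (-0.66, adjusted p = 0.308). The 2 measured BCL6 corepressors, BCOR (0.13, adjusted p = 0.793) and HDAC3 (-0.27, adjusted p = 0.559), did not pass either. Of 6 other interferon regulatory factors none passed, with IRF5 at 0.76 (adjusted p = 0.228), IRF3 at -0.47 (adjusted p = 0.290), IRF1 at -0.39 (adjusted p = 0.457) and IRF2 at 1.01 (adjusted p = 0.464). Without LP1, 1 of these 6 was called, in a fit that called 897 of all probe sets against 619 with every line.

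In the wider families and the XBP1 pathway PDIA6 was called, beside 1.12% of all probe sets called higher and 1.67% lower. Of 8 measured PRDM relatives none passed, PRDM10 coming nearest (-2.34, SE 0.42, adjusted p = 0.0560, and -0.09 at its other probe set). In the fit without Namalwa 1 of the 8 passed, beside 327 of all probe sets. With arrays centred on their 75th percentile 1 also passed, beside 704 of all probe sets. PRDM12 (0.26, adjusted p = 0.229), PRDM2 (-1.09, adjusted p = 0.274) and PRDM11 (0.17, adjusted p = 0.512) followed. Of 5 stress sensors and factors around XBP1, ATF6 (0.69, adjusted p = 0.0999), ATF4 (-0.33, adjusted p = 0.107), ERN1, which encodes the enzyme that splices XBP1 (0.16, adjusted p = 0.340), DDIT3 (-0.10, adjusted p = 0.681) and 1 more, none passed. Of 10 measured genes known to be activated by XBP1, the disulfide isomerase gene PDIA6 rose by 0.92 (SE 0.15, adjusted p = 0.0423) and also passed at its other 3 probe sets (0.96, 1.07 and 1.11), but lost its call at the first whichever line was left out. DNAJB9 (1.18, adjusted p = 0.212), the chaperone gene HSPA5 (0.35, adjusted p = 0.249) and DNAJC3 (0.26, adjusted p = 0.253) did not pass, and the median of the 10 was 0.21.

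**Figure D5:**
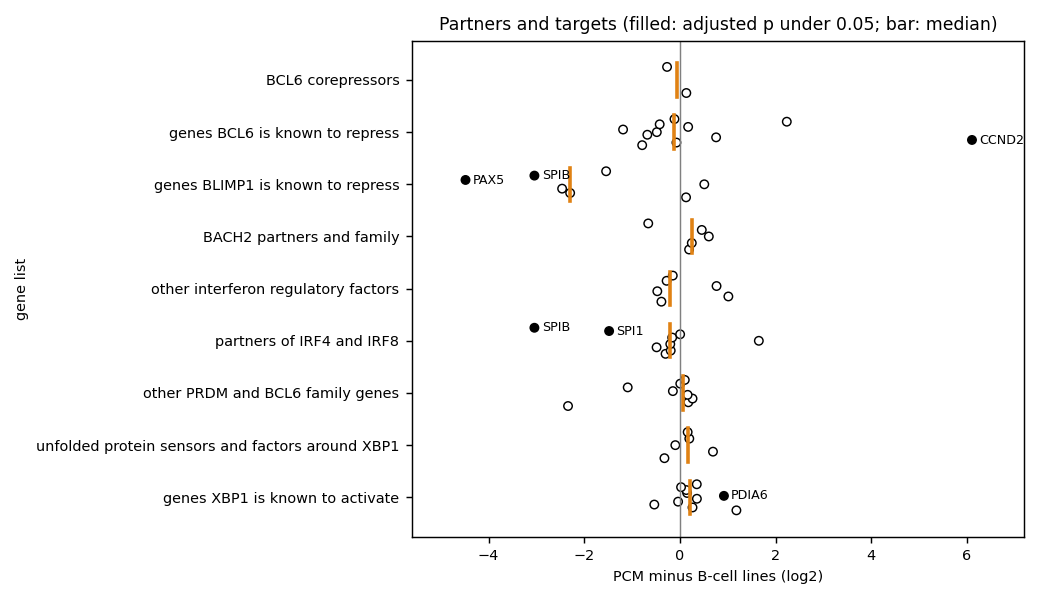
Difference between PCM and B-cell lines (log2) for the measured genes of 9 lists of partners and targets, filled where the adjusted p was under 0.05, with an orange bar at the median of each list. CCND2 (6.10) rose, PDIA6 (0.92) rose, and PAX5 (-4.48), SPIB (-3.04, in 2 lists) and SPI1 (-1.48) fell. The other genes did not pass at the brightest probe set, which is the one shown.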

How the data were processed

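The authors deposited RMA values in log2 units, 22283 probe sets on 9 arrays, per the series design text and the submitters' processing notes; the RMA version is not given in the sources used here. Another table deposited by the authors holds their p-value, adjusted p-value and log2 difference for PCM against B-cell lines; that difference equals B-cell minus PCM, so its sign was turned. Symbols came from the platform annotation, with 19065 probe sets of 1 symbol. In R 4.3.3, limma 3.58.1 was run on 22215 probe sets, without 68 controls. For PCM against B-cell lines duplicate arrays were averaged (3 against 3 lines, 4 residual degrees of freedom); an exact permutation test of 3 against 3 cannot go below 0.1 and was not used. The 15 pairs of lines came from 9 arrays with line as a factor (3 residual degrees of freedom). Tests were two-sided with Benjamini-Hochberg adjustment over all probe sets, called under 0.05. The number of arrays limits the precision. Where a gene has several probe sets, the brightest stands for it in lists. All probe sets of the 6 genes were named, up to 4 genes of smallest p per list, and the 3 most similar patterns per gene. For genes repressed by BLIMP1 all 7 measured were named, and SSR1 was named for a probe set other than its brightest. The members and lists were chosen with earlier results of these data known. Both fits were tested on simulated data. Promoter windows came from RefSeq (GRCh38.p14), 10 for the 6 genes.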

Additional observations from a re-analysis of the deposited data

How the results depend on the processing

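No alternative turned the direction of any of the 9 probe sets between PCM and B-cell lines. The count of 619 called probe sets became 2189 with each array as a replicate and 2188 in the authors' deposited table. It became 1567 with line as a random block, 184 with L363 and U266 averaged and 75 at an adjusted p under 0.01. It ran from 131 to 897 when a line or array was left out. After dropping probe sets of the _x_at and _s_at types it was 271. Of the switch factor probe sets, 6 were called, against 3 after that drop, which removes 4 of the 9, 2 with L363 and U266 averaged, 2 at the stricter threshold and 2 to 6 with a line or array left out. When a line was left out, list counts ran from 2 to 4 (repressed by BLIMP1) and fell from 1 to 0 throughout (activated by XBP1). They ran from 0 to 1 for PRDM relatives (1 also with centring on the 75th percentile) and for other interferon regulatory factors. For partners of IRF4 and IRF8 they ran from 1 to 2. The lists were not rerun with an array left out. Combinations with both kinds of factor fell from 3 to 0 with a limit of 67%. The 15 pairs gave 82 calls, and 69 to 89 with an array left out. Intermediate positions fell from 10 to 7 between 33% and 67%. Between neighbours that did not pass with all arrays, the sign turned for SU-DHL4 minus Namalwa at PRDM1 (-0.029 with that centring, -0.11 to 0.14 with an array left out) and for U266 minus L363 at XBP1 (-0.089 with centring, -0.17 after a second quantile normalization). With an array left out it also turned for Namalwa minus SU-DHL4 (-0.040 to 0.14) and SU-DHL6 minus Namalwa (-0.079 to 0.35) at IRF4 216986_s_at, for SU-DHL6 minus LP1 at BACH2 (-0.013 to 1.12) and for SU-DHL6 minus Namalwa at IRF8 (-0.082 to 0.25); the cause was not tested. Deviations of same-numbered duplicates correlated at -0.444 between Namalwa and SU-DHL4, -0.150 between Namalwa and SU-DHL6 and 0.199 between SU-DHL4 and SU-DHL6. These signs differ, and whether arrays pair across lines under other numbers was not tested. A replicate block on the 6 B-cell arrays gave 11 calls, as many as without it.
No paired analysis of PCM against B-cell lines was possible because each PCM line has 1 array.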

Other observations

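Single lines stood apart at genes of the lists, picked out after their values were seen. CD69, an early activation antigen that BCL6 represses, stood at 6.25 (log2) in Namalwa against 4.22 to 4.4 in the other 5 lines, 1.85 above the next (SE 0.19, adjusted p = 0.00346 in the fit on pairs of lines). GPR183, a receptor that guides B cells out of the follicle, was likewise higher in Namalwa, by 1.09 over the next line (SE 0.22, adjusted p = 0.0251). In LP1 the adhesion gene CD44 stood at 7.89 against 5.80 to 6.13 elsewhere, 1.76 above U266 (SE 0.13, adjusted p = 0.00233). LP1 also led at JUN by 2.48 (SE 0.39, adjusted p = 0.0257) and at EIF2AK3, which encodes the stress sensor PERK, by 1.16 (SE 0.12, adjusted p = 0.00307). Each of these tests compares a line with the nearest of the others, on the spread between duplicate arrays. CD44 has 8 probe sets and JUN 4, and only the brightest of each was compared in this way.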
